A study of Homo sapiens with 5 samples.

Results

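The genes described here are the nuclear-encoded subunits of the oxidative phosphorylation machinery, taken by their names: NDUFA, NDUFB, NDUFC, NDUFS and NDUFV genes (complex I), SDHA to SDHD (complex II), UQCR genes and CYC1 (complex III), COX4 to COX8 genes (complex IV) and ATP5 genes (complex V). The rule found 91 of the 26485 genes counted, 39 in complex I, 4 in complex II, 11 in complex III, 17 in complex IV and 20 in complex V, after 3 antisense names were left out. It uses names only, so it also takes up a few read-through, pseudogene and assembly-factor names, which are named where they matter. The 13 subunits encoded by mitochondrial DNA were not analysed here. All libraries came from SW480, an established human colorectal cancer line, carrying dCas9-KRAB, a repressor that CRISPR guides direct to a gene's start. The cells were transduced with sgControls (2 libraries) or with sgAKAP12, directed at the scaffold gene AKAP12 (3 libraries), and RNA was taken 48 hours after seeding. Sample titles instead read shControl and shAKAP12, which would mean another silencing method, and the treatment protocol was followed here. Neither the number of guides nor the number of cell clones behind a group is given in the sources used here. The comparison is that of knockdown with control, and it asks how expression differs when AKAP12 is silenced.

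Oxidative phosphorylation passes electrons from NADH (through complex I) and from succinate (through complex II) to coenzyme Q, then through complex III, cytochrome c and complex IV to oxygen. Complexes I, III and IV pump protons across the inner mitochondrial membrane, and complex V, the ATP synthase, uses their return flow to make ATP. Most subunits are encoded in the nucleus and imported, and complexes I, III, IV and V are completed by subunits made inside the mitochondrion. In complex I a conserved core carries the electron transfer, and accessory subunits surround it.

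The libraries held 4935096 to 9311026 counted reads, measured by 3' end sequencing. A count of 0 allows up to 0.322 to 0.608 CPM (reads scaled to library size), a limit scaled to the library total. The CPM values of genes are instead scaled to library sizes adjusted by TMM factors. The factor of control 1 was 0.8291, which raises its CPM, so its limit would be higher on that scale. AKAP12 itself was at 2870 and 1550 CPM in the controls and 1077 ± 76.4 CPM (SD, n = 3) in the knockdown, a log2 fold change of -1.04 (SE 0.31) with an adjusted p of 0.0513, which missed the threshold of 0.05. Its log2 fold change was -0.52 without control 1 and -1.42 without control 2. The first control library (control 1) stood apart. Over 14536 genes its correlation with the knockdown libraries was 0.81 to 0.82 on log2(CPM + 1), against 0.92 to 0.94 for control 2 and 0.99 among the knockdown libraries. Short non-coding RNAs took 8.64% of its reads, 1.73% of those of control 2 and 0.641% to 0.927% of those of the knockdown libraries. TERT took 7.43% and 3.54% of the reads of the controls and 0.0451% to 0.249% of those of the knockdown libraries, so it set both controls apart. Without these RNAs and TERT the fit gave 25 members higher (11.4% of all genes) and 9 lower (11.6% of all genes), beside the 24 and 9 reported below. Because of control 1, the counts and medians are also given without either control, as is the value of any called member that moves by over 1.5 times on the log2 scale. Of the 7 epithelial markers examined, KRT18, KRT19, EPCAM and CDX2 were detected in every library, and CDH1 and VIL1 were low. KRT8 was called higher, from 69.1 and 54.9 CPM to 143, 227 and 268 CPM (log2 fold change 1.78, adjusted p 0.0195). Reads were counted for every gene they overlap, and KRT8 shares exon sequence with KRT18, so its call is uncertain. The 7 summed to 1030 and 1539 CPM in the controls and 1353 to 1607 CPM in the knockdown. The 13 stromal and blood markers, none of them at 0 in all libraries, summed to 425 and 576 CPM in the controls and 532 to 614 CPM in the knockdown. The highest of them, COL1A1, was at 160 to 197 CPM, above EPCAM (82.1 to 169 CPM) in each library. The lowest, CD3D, was at 0.615 to 3.1 CPM. Of these 13, 0 were higher and 2, CD68 and CD3D, were lower in the knockdown (11.2% and 11.4% of all genes). CD3D had only 5 to 27 reads per library.

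Most subunit genes that differed were higher in AKAP12 knockdown cells. A smaller set, mainly of complex I, was lower, and its share of the members was close to that among all genes. Of the 91 genes, 85 had enough reads to be tested, and 24 were higher and 9 lower by edgeR's quasi-likelihood test with Benjamini-Hochberg adjustment over all genes, while 52 did not pass. Among all 14536 genes tested, 11.2% were higher and 11.4% were lower (1624 and 1658 genes; 1668 and 982 when scaled by library size only, which shifts the median of all genes by 0.20). The median log2 fold change of the 85 was 0.69, beside 0.04 for all genes tested. The knockdown libraries lay entirely above both controls for 54 of the 85, where 31.6% of all genes did, and entirely below them for 12, where 28.5% of all genes did. In bulk RNA, fewer cells of a type and less RNA per cell cannot be told apart. Without control 1, 45 members were higher (20.3% of all genes) and 15 lower (17.0% of all genes), with a median of 0.40. Without control 2, 60 were higher (30.5% of all genes) and 13 lower (27.6% of all genes), with a median of 1.18. All 24 higher and all 9 lower members passed in both of these fits. With 1 control left, their p-values rest on the spread of the knockdown libraries alone. Leaving out any one knockdown library removed all calls, of members and of other genes alike: 0 of the 85 passed, while 40, 39 and 40 of them had an unadjusted p under 0.05 without knockdown 1, 2 and 3. Single calls were lost with limma-voom (SDHD and ATP5EP2), with library size as the only scaling (COX7B, CYC1, NDUFA8, SDHD, NDUFB10 and NDUFB11) and with no filter on low counts (NDUFS4 and NDUFB10).

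**Figure D1:**
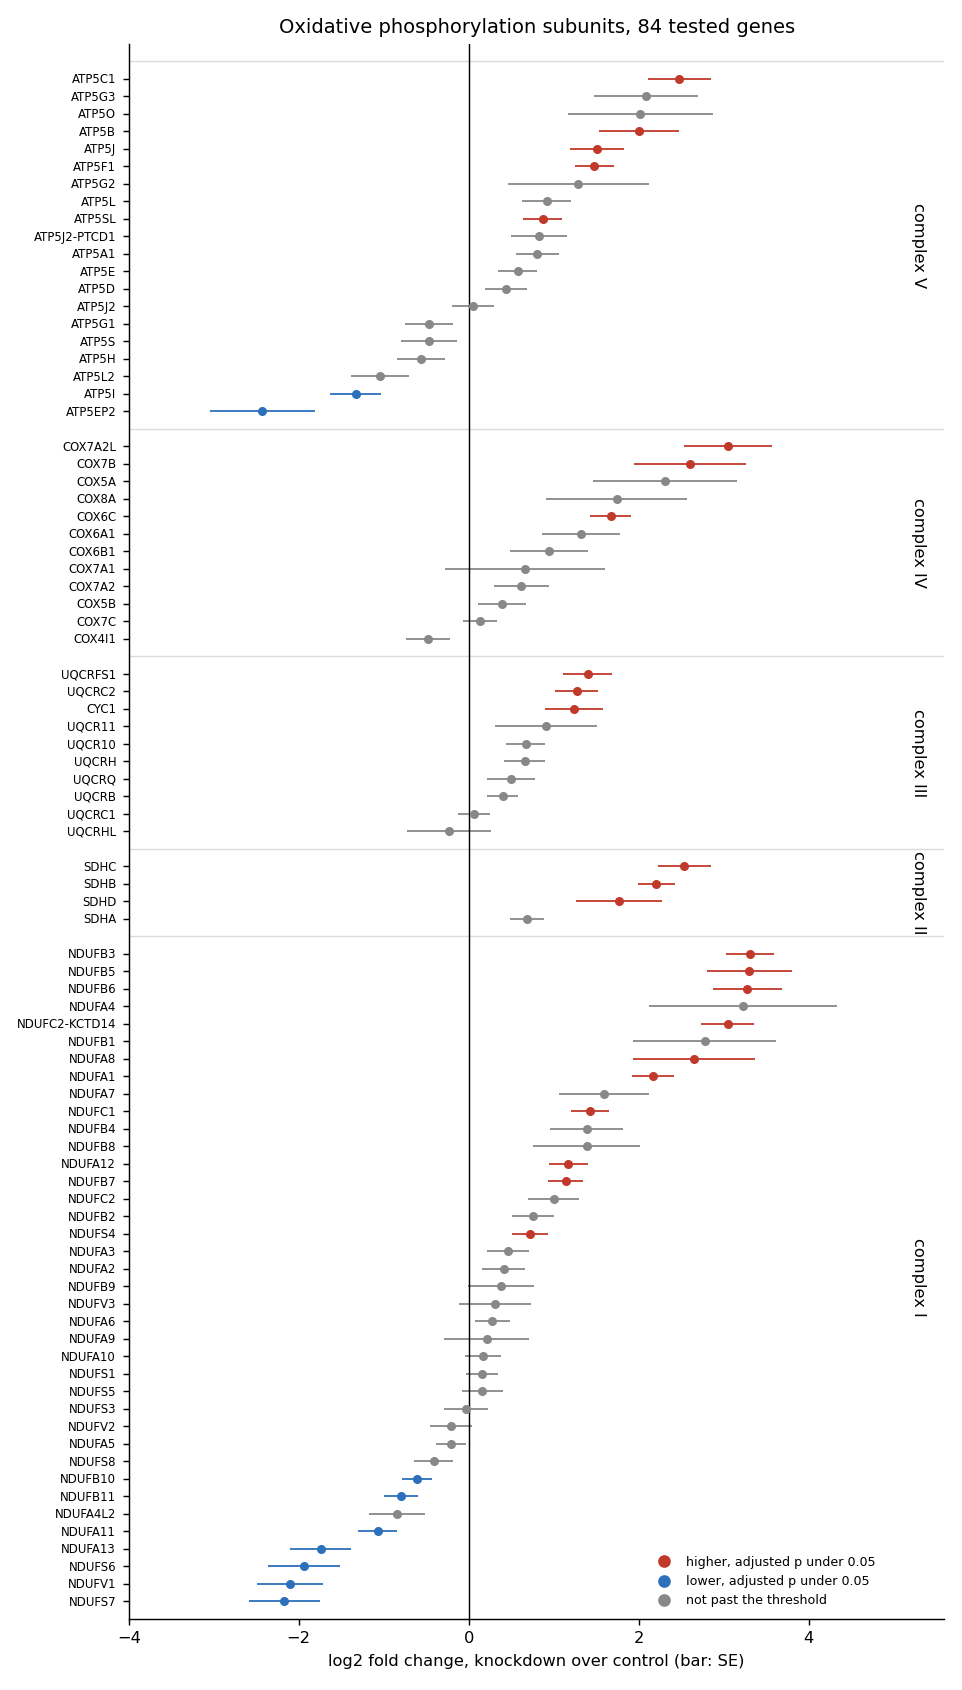
Log2 fold change of knockdown over control (horizontal axis) for 84 of the 85 tested subunit genes, grouped by complex and ordered within it. Points are edgeR estimates, bars are standard errors, and colour marks the adjusted p; complexes II to IV hold no lower call, while complex I holds calls at both ends, from -2.17 (NDUFS7) to 3.31 (NDUFB3).

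Calls were spread over all 5 complexes, and the differences between complexes were not tested. Beside the counts given here, 11.2% of all genes tested were higher and 11.4% were lower. In complex I, 10 of 39 genes were higher and 7 lower, and the median log2 fold change was 0.38, or 0.16 without control 1 and 0.88 without control 2. In complex II, 3 of 4 were higher and 0 lower, with a median of 1.99 (1.79 and 2.35). Complex III had 3 of 10 higher and 0 lower, with a median of 0.67 (0.39 and 0.96). Complex IV had 3 of 12 higher and 0 lower, with a median of 1.14, and this median moved with the controls, to 0.53 without control 1 and 2.24 without control 2. In complex V, 5 of 20 were higher and 2 lower, with a median of 0.82 (0.44 and 1.00).

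Summing the TMM-scaled CPM of each complex's genes, without read-through and pseudogene names, gives a value for each library. The 4 complex II genes together were at 49.0 and 53.8 CPM in the controls and 154 ± 10.7 CPM (SD, n = 3) in the knockdown, so the controls lay close together and far below every knockdown library. Complex III summed to 1205 and 2001 CPM against 2488 ± 65.0 CPM, complex IV to 1257 and 2459 CPM against 3358 ± 159 CPM, and complex V to 4086 and 4845 CPM against 6452 ± 223 CPM. For these 3 complexes control 2 lay between control 1 and the knockdown libraries. The 38 complex I genes summed to 6086 and 5269 CPM in the controls and 6065 ± 143 CPM in the knockdown, with control 1 inside the knockdown range. This overlap depends on the scaling, since a TMM factor of 0.8291 raised the CPM of control 1. The factors of the other libraries were 1.007 to 1.086, and no sum was made by library size only. NDUFA4, now placed in complex IV, is counted here in complex I by its name. It was at 3.18 and 95.8 CPM against 473 ± 56.7 CPM, so the sums of both complexes depend on this placement. No sum was made with NDUFA4 moved. NDUFS6, itself called lower, made up 1827 CPM of the complex I sum in control 1. Without NDUFS6, left out after its values were seen, the sums were 4259 and 4627 CPM against 5744 ± 171 CPM. On this scaling the groups then no longer overlapped, an outcome that depends on this choice of gene.

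**Figure D2:**
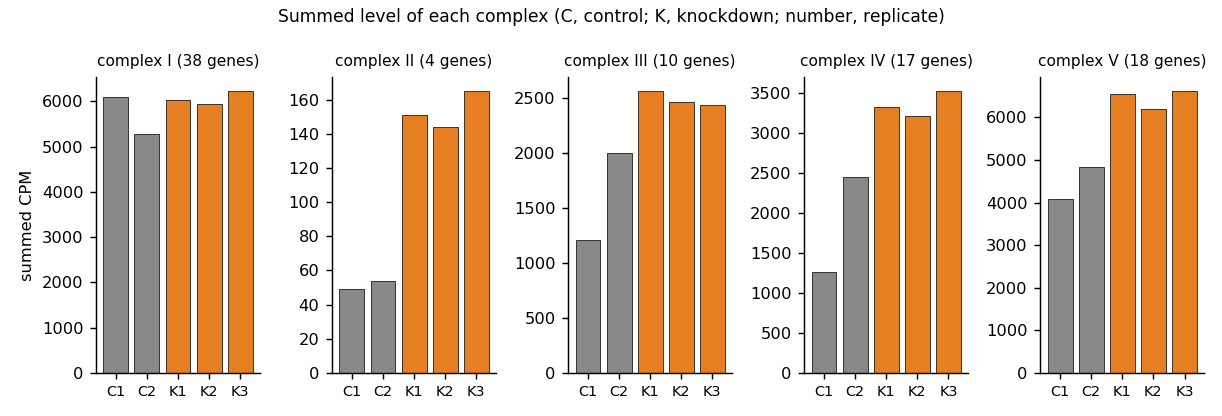
Summed CPM (vertical axis, from 0, a different scale in each panel) of the genes of complexes I to V in each of the 5 libraries, without read-through and pseudogene names. Grey bars are the 2 control libraries and orange bars the 3 knockdown libraries; complex II has close controls at 49.0 and 53.8 CPM, while in complexes III to V control 1 is lowest.

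The highest folds in complex I were in the B family of accessory subunits, which sits in the membrane arm that pumps protons. Of its 11 genes, 4 were higher and 2 lower (11.2% and 11.4% of all genes). Their median log2 fold change was 1.39, or 0.86 without control 1 and 2.26 without control 2. NDUFB3 (chr2:201071739-201085751, hg38, plus strand) was at 7.84 and 5.85 CPM in the controls and at 67.7, 56.3 and 77.2 CPM in the knockdown libraries. Its controls were close to each other and far below every knockdown library. The log2 fold change was 3.31 (SE 0.28, adjusted p 0.0124). NDUFB6 (chr9:32553526-32573184, minus strand) was at 4.90 and 9.75 CPM in the controls and 55.6, 67.4 and 96.9 CPM in the knockdown, a log2 fold change of 3.28 (SE 0.41, adjusted p 0.0131). NDUFB5 (chr3:179604787-179624500, plus strand) was at 4.16 and 14.3 CPM against 83.4, 87.1 and 114 CPM, a log2 fold change of 3.30 (SE 0.50, adjusted p 0.0158). In these 2 genes control 2 was higher than control 1, and the groups did not overlap. NDUFB7 was at 46.1 and 48.9 CPM against 105 ± 13.5 CPM, with a log2 fold change of 1.14 (SE 0.21, adjusted p 0.0203). The same family also held genes that fell: NDUFB11, at 317 and 246 CPM against 162 ± 12.8 CPM, and NDUFB10, at 153 and 139 CPM against 95.3 ± 1.77 CPM, with log2 fold changes of -0.80 and -0.61. NDUFB1, with 9.06 CPM in control 1 and 93.6 in control 2 against 359 ± 49.5 CPM in the knockdown, missed the threshold at an adjusted p of 0.0549.

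Other accessory subunits of complex I that rose were NDUFA1, NDUFA8, NDUFA12, NDUFC1 and NDUFS4. NDUFA1, a small membrane subunit encoded on the X chromosome (chrX:119871771-119876666, plus strand), was at 65.4 and 96.1 CPM in the controls and 334, 382 and 377 CPM in the knockdown. The 3 knockdown libraries were close together and well above both controls, and the log2 fold change was 2.17 (SE 0.25, adjusted p 0.0131). NDUFC1 was at 34.0 and 36.9 CPM against 86.7, 88.0 and 112 CPM, so its controls barely differed, and it rose by 1.43 on the log2 scale (SE 0.22, adjusted p 0.0159). NDUFA12 and NDUFS4, a subunit of the NADH-oxidising arm, had log2 fold changes of 1.17 and 0.72. NDUFA8 had an uneven control group, at 5.63 and 43.6 CPM against 159 ± 4.42 CPM, and a log2 fold change of 2.65 (SE 0.72, adjusted p 0.0422) that was 1.87 without control 1 and 4.81 without control 2. The read-through name NDUFC2-KCTD14 rose from 13 and 13.6 CPM to 79.7, 113 and 140 CPM, a log2 fold change of 3.05 (SE 0.31, adjusted p 0.0124). The genes it joins differed from it: NDUFC2 was at 86.2 and 157 CPM against 243 ± 27.2 CPM (adjusted p 0.0522), and KCTD14 had a log2 fold change of -0.50 (adjusted p 0.334).

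The core subunits of complex I include those that hold the flavin and the iron-sulphur clusters. Of these 7 genes, 0 were higher and 2 were lower (11.2% and 11.4% of all genes). The accessory genes had 9 higher and 5 lower, beside the same shares, with a median of 0.72. The difference between the sets was not tested. NDUFV1 (chr11:67606852-67612541, plus strand), which binds NADH and the flavin, was at 510 and 190 CPM in the controls and 91.6, 79.2 and 73.0 CPM in the knockdown. NDUFS7 (chr19:1383884-1395589, plus strand), which carries the last cluster before coenzyme Q, was at 216 and 72.9 CPM in the controls and 34.5, 33.2 and 28.0 CPM in the knockdown. In both genes control 1 was far above control 2, and both controls were above every knockdown library. They fell by 2.10 (SE 0.39, adjusted p 0.0208) and 2.17 (SE 0.42, adjusted p 0.0219) on the log2 scale, and without control 1 their log2 fold changes were -1.22 and -1.19. NDUFS1, NDUFS3, NDUFS8 and NDUFV2 did not pass and had log2 fold changes of 0.16, -0.03, -0.41 and -0.21. The signs of NDUFS3 and NDUFV2 depended on the scaling. NDUFS1 was at -0.06 in the fit with GC offsets given below, and NDUFV2 was at 0.20 without control 1.

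Among accessory genes the falls included NDUFS6 (chr5:1801382-1816051, plus strand), a zinc-binding subunit next to the core. It was at 1827 and 642 CPM in the controls and 360, 322 and 283 CPM in the knockdown, a log2 fold change of -1.94 (SE 0.42, adjusted p 0.0256) that was -1.0 without control 1. NDUFA13, also known as GRIM-19, was at 414 and 169 CPM against 87.2 ± 8.82 CPM, and NDUFA11 at 483 and 327 CPM against 193 ± 12.4 CPM, with log2 fold changes of -1.74 (-0.95 without control 1) and -1.07. In each of these 3 genes control 1 was the highest library and control 2 lay between it and the knockdown. Without control 1 the median log2 fold change of all 9 members called lower was -0.83, beside -1.74 with both controls.

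Complex II, the succinate dehydrogenase that also serves the citric acid cycle, rose in 3 of its 4 genes. SDHB (chr1:17018726-17054170, minus strand), its iron-sulphur subunit, was at 11.0 and 11.8 CPM in the controls and 52.4, 48.5 and 58.4 CPM in the knockdown. The controls were nearly equal, no knockdown library came near them, and the log2 fold change was 2.21 (SE 0.22, adjusted p 0.0124). SDHC and SDHD anchor the enzyme in the membrane. SDHC (chr1:161314376-161364745, plus strand) was at 5.14 and 8.6 CPM against 38.7, 36.8 and 47.7 CPM, a log2 fold change of 2.54 (SE 0.31, adjusted p 0.0131). SDHD was the lowest in counts, with 8 reads in control 1, at 1.96 and 4.01 CPM against 10.3, 6.43 and 15.4 CPM, and its log2 fold change of 1.77 (SE 0.51) had an adjusted p of 0.0483. SDHA, the flavin-bearing catalytic subunit, was at 30.9 and 29.4 CPM against 49.9, 52.5 and 43.8 CPM. Its knockdown libraries lay above both controls, its log2 fold change was 0.69 (SE 0.20), and its adjusted p of 0.0506 missed the threshold.

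In complex III the 3 higher genes encode parts of its catalytic or core structure: UQCRFS1 is the Rieske iron-sulphur protein, CYC1 is cytochrome c1, and UQCRC2 is a core protein. UQCRC2 (chr16:21953064-21983660, plus strand) was at 32.6 and 51.4 CPM in the controls and 108, 98.0 and 98.4 CPM in the knockdown, a log2 fold change of 1.27 (SE 0.25, adjusted p 0.0222). UQCRFS1 (chr19:29207260-29213229, minus strand) was at 24.7 and 45.1 CPM against 88.7, 98.3 and 91.1 CPM, a log2 fold change of 1.40 (SE 0.29, adjusted p 0.0238). CYC1 was at 38.2 and 84.8 CPM against 155, 136 and 146 CPM, a log2 fold change of 1.24 (SE 0.34, adjusted p 0.0441) that was 0.78 without control 1 and 1.93 without control 2. In all 3 genes control 1 was lowest and control 2 stood between it and the knockdown. The other core protein, UQCRC1, was level, at 101 and 106 CPM against 108 ± 10.8 CPM (log2 fold change 0.06, SE 0.19). UQCRQ, a small subunit known to bind quinone, was at 479 and 818 CPM against 917 ± 62.2 CPM (adjusted p 0.230).

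Complex IV, cytochrome c oxidase, had higher calls for COX7A2L, COX7B and COX6C. COX7A2L, a factor in joining complex III and complex IV into supercomplexes (chr2:42350505-42361216, minus strand), was at 6.37 and 23.4 CPM in the controls and 112, 119 and 151 CPM in the knockdown. All 3 knockdown libraries were several times above the higher control, and the log2 fold change was 3.05 (SE 0.52, adjusted p 0.0181). COX7B (chrX:77899464-77905384, plus strand), a small membrane subunit, was at 19.8 and 107 CPM against 358, 369 and 450 CPM, a log2 fold change of 2.61 (SE 0.66, adjusted p 0.0350) that was 1.87 without control 1 and 4.30 without control 2. COX6C, a small subunit on chromosome 8, was at 70.1 and 102 CPM against 256, 272 and 299 CPM, a log2 fold change of 1.67 (SE 0.24, adjusted p 0.0148), so its controls were the closest of the 3. COX4I1, a regulatory subunit, did not pass, at 401 and 631 CPM against 370 ± 51.0 CPM (adjusted p 0.212). COX5A and COX8A had folds as high as called genes but uneven controls, 8.33 and 97.3 CPM against 265 ± 29.2 CPM and 25.0 and 274 CPM against 500 ± 28.0 CPM, and adjusted p of 0.0901 and 0.166.

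In complex V the catalytic head contributed ATP5C1 and ATP5B, the gamma and beta subunits. ATP5C1 (ATP5F1C in current naming; chr10:7788130-7807799, plus strand) was at 11.8 and 27.2 CPM in the controls and 115, 103 and 115 CPM in the knockdown, a log2 fold change of 2.48 (SE 0.37, adjusted p 0.0152). ATP5B (chr12:56638175-56646068, minus strand) was at 66.4 and 206 CPM against 532, 508 and 604 CPM, a log2 fold change of 2.00 (SE 0.47, adjusted p 0.0302) that was 1.41 without control 1 and 3.04 without control 2. In both genes every knockdown library was well above the higher control, and control 1 was the lowest library in each. All 5 head genes lay above both controls in the knockdown, where 31.6% of all genes did. ATP5A1 (alpha), ATP5D (delta) and ATP5E (epsilon) did not pass, with log2 fold changes of 0.81, 0.44 and 0.58. Of the 8 stalk and membrane genes, which include the copy ATP5L2, 2 were higher and 1 lower (11.2% and 11.4% of all genes). ATP5F1 (subunit b) and ATP5J (F6) rose, by 1.48 (SE 0.23, adjusted p 0.0163) and 1.51 (SE 0.32, adjusted p 0.0252). ATP5I, subunit e of the dimer interface (chr4:672436-674338, minus strand), fell from 1379 and 705 CPM to 430, 419 and 395 CPM, a log2 fold change of -1.33 (SE 0.30, adjusted p 0.0286) that was -0.77 without control 1. ATP5SL, now named DMAC2 and known as a complex I assembly factor, rose by 0.87. The pseudogene ATP5EP2 fell from 80.6 and 15.6 CPM to 8.81 ± 1.86 CPM, a log2 fold change of -2.43 that was -0.83 without control 1, and since it copies ATP5E, its reads and those of its parent may have been split in counting.

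**Figure D3:**
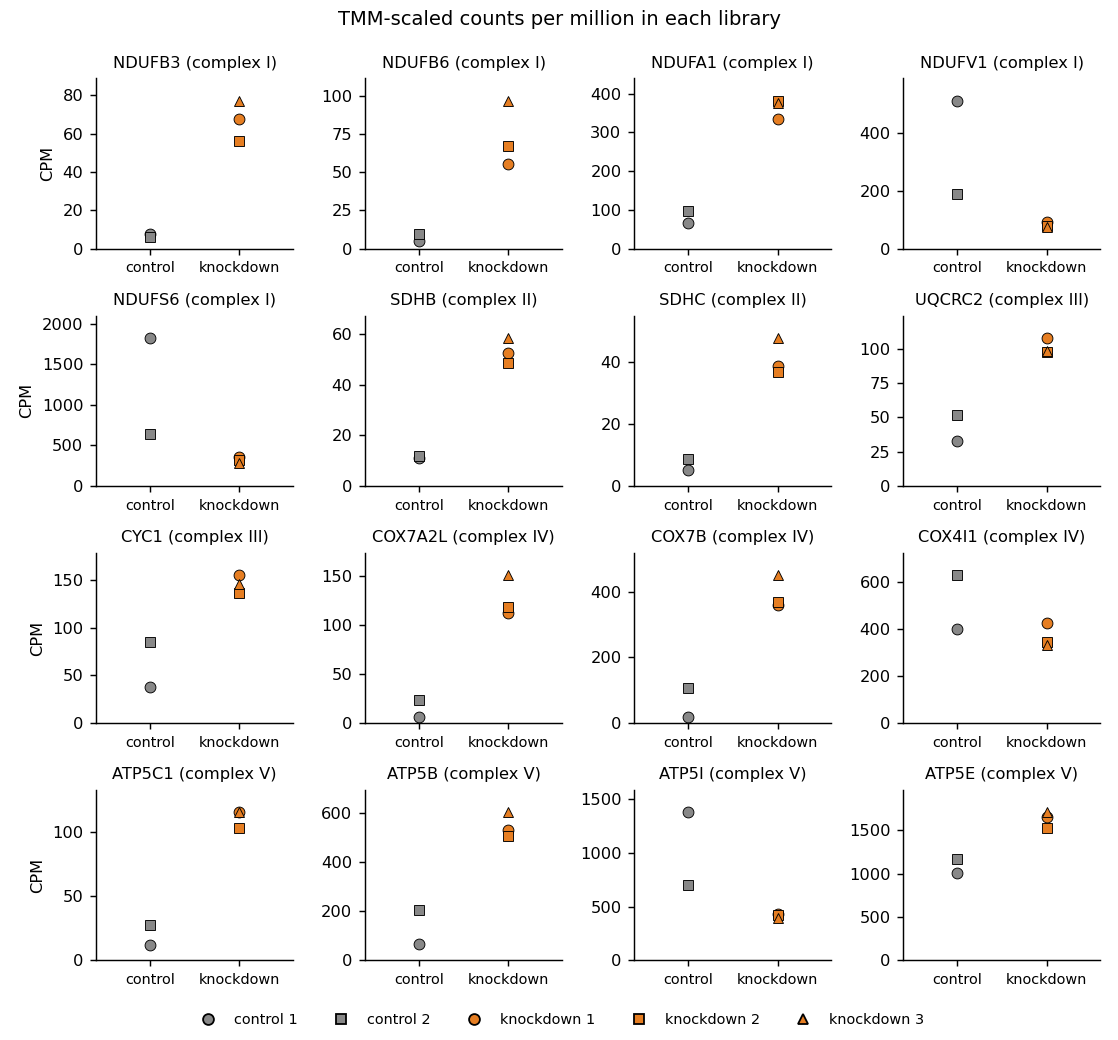
TMM-scaled CPM (vertical axes, each from 0 and on its own scale) of 16 subunit genes in the 2 control libraries (grey) and the 3 knockdown libraries (orange), the marker shape giving the replicate number. NDUFB3, NDUFB6, SDHB and SDHC have both controls near the floor of the panel, while NDUFV1, NDUFS6 and ATP5I have the knockdown lowest and control 1 highest.

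The promoters of a few called members are shown because genes that rose and genes that fell carry the same motif. Promoters run from 250 bases before to 50 bases after the start (RefSeq, GRCh38.p14, the first listed start of each gene), and 69 of the 91 members matched an entry while 22 did not. Letters were searched on both strands: GCGCATGC for the regulator NRF1, CCGGAAG for ETS factors such as GABPA, AAGATGGC for YY1, GGGCGG for SP1, and TATAAA. Capitals mark the matches. SDHB at chr1:17053983-17054282 (minus strand), ATP5C1 at chr10:7787927-7788226 (plus strand) and NDUFA8 at chr9:122159730-122160029 (minus strand) rose, and NDUFS7 at chr19:1383657-1383956 (plus strand) and ATP5I at chr4:674227-674526 (minus strand) fell. In ATP5C1 and NDUFA8 the NRF1 letters overlap their own reverse complement in GCGCATGCGC.
SDHB: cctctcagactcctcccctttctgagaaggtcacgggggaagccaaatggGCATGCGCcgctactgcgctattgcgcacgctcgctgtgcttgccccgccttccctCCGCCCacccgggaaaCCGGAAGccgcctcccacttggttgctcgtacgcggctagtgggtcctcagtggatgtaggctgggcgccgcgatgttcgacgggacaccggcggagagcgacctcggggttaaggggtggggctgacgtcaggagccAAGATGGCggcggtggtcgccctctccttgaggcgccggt
ATP5C1: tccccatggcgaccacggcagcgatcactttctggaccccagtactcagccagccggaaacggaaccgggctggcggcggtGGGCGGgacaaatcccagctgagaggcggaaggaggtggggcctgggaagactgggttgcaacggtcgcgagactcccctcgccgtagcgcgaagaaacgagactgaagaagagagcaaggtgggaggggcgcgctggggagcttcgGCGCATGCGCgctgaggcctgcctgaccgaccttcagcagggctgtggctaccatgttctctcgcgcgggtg
NDUFA8: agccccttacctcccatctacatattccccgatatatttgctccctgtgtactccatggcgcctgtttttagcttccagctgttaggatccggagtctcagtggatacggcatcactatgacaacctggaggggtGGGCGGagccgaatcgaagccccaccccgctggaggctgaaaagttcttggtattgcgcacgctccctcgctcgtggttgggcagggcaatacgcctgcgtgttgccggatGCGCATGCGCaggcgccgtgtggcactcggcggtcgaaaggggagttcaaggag
NDUFS7: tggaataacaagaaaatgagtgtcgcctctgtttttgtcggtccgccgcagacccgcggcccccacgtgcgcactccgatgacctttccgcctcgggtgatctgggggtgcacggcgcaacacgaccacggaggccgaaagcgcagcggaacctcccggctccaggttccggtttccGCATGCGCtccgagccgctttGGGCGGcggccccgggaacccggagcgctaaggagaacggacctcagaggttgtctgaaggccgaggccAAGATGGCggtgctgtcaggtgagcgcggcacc
ATP5I: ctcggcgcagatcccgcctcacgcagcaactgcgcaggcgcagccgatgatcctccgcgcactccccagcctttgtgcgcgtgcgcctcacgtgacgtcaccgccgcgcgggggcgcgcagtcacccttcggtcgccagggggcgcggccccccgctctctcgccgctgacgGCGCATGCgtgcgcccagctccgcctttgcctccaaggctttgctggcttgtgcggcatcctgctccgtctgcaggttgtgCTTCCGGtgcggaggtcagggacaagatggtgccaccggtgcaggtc
All 5 sequences hold the NRF1 letters. Over the 69 promoters, NRF1 letters were in 18.8%, against 3.27% of 27305 promoters in the RefSeq table and 5.23% of those of tested genes. ETS letters were in 27.5% (10.7% and 18.2%), YY1 letters in 15.9% (3.03% and 5.14%), SP1 letters in 58.0% (44.6% and 68.4%) and TATAAA in 10.1% (12.0% and 6.01%). The NRF1 letters were in 5 of 19 matched members that were higher, 3 of 8 that were lower and 5 of 38 that did not pass. A match is a description of these letters and does not show binding.

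The 52 tested members that did not pass ranged in log2 fold change from -1.04 (ATP5L2) to 3.23 (NDUFA4), with a median of 0.45. In 30 of them all knockdown libraries lay above both controls, in 3 (ATP5L2, NDUFA4L2 and NDUFA5) below both, and in the rest the ranges overlapped. Among all genes tested, called ones included, 31.6% lay above and 28.5% below. With DESeq2, 37 members were higher (14.0% of all genes) and 9 lower (14.1% of all genes), and the 13 added as higher came from these 52. They were NDUFA7, NDUFB1, NDUFB2, NDUFB4 and NDUFC2 of complex I, COX5A, COX6A1 and COX8A of complex IV, and ATP5A1, ATP5E, ATP5G3, ATP5L and ATP5O of complex V. ATP5O, the stalk subunit that confers oligomycin sensitivity, was at 12.2 and 144 CPM in the controls and 306, 316 and 336 CPM in the knockdown, with an edgeR adjusted p of 0.123 and a DESeq2 adjusted p of 0.0193. NDUFA7 was at 16.7 and 68.7 CPM against 133, 121 and 137 CPM, and COX6A1 at 22.8 and 75.4 CPM against 130, 115 and 127 CPM. In these 3 genes control 2 stood between control 1 and the knockdown libraries. Other members stayed near the same level in all 5 libraries: COX7C, a small complex IV subunit, was at 333 and 319 CPM against 357 ± 36.0 CPM, NDUFS1, the largest core subunit of complex I, at 86.7 and 87.2 CPM against 97.2 ± 8.79 CPM, and NDUFA10 at 49.5 and 64.8 CPM against 64.2 ± 4.27 CPM. Some had the 1 high control instead: NDUFA9 was at 42.4 and 167 CPM against 121 ± 8.99 CPM, and NDUFB9 at 175 and 456 CPM against 410 ± 31.8 CPM, so control 2 was above every knockdown library and control 1 below.

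Several subunits of complexes I, III, IV and V exist in a widely expressed and a restricted or duplicate form (the copies of ATP5L and UQCRH are included here). The widely expressed form was the higher one in every library, except for NDUFA4 in control 1. Levels are given in CPM without division by exon length, since the reads come from 3' ends. COX4I1 averaged 428 CPM over the libraries, COX6A1 93.9, COX6B1 312, COX7B 261 and COX8A 360. Their partners COX4I2 (1 read in all 5 libraries), COX6A2 (0 reads), COX6B2 (4 reads), COX7B2 (0 reads) and COX8C (3 reads) were at or under the limit that a count of 0 allows in each library and were not tested. UQCRBP1, a pseudogene, was not tested either. COX7A1, the heart and muscle partner of COX7A2, had 72 reads in all and 0 in control 1, and averaged 1.64 CPM beside 209 for COX7A2. NDUFA4, now placed in complex IV by structural work although its name put it in complex I here, has the restricted partner NDUFA4L2. NDUFA4 was at 3.18 and 95.8 CPM against 473 ± 56.7 CPM, with 13 reads in control 1, while NDUFA4L2 was at 15.2 and 30.3 CPM against 12.9 ± 1.71 CPM. In control 1 NDUFA4L2 was thus above NDUFA4, and in the other libraries NDUFA4 was higher. Neither passed, with adjusted p of 0.0759 and 0.107. UQCRHL and ATP5L2, copies of UQCRH and ATP5L, averaged 3.98 and 6.28 CPM beside 319 and 686 for their parents. Reads of such copies may be exchanged with those of the parents. None of these 4 genes passed.

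Subunit c, which forms the rotating ring of complex V, is encoded by 3 genes that give an identical mature protein. ATP5G3 was at 52.4 and 256 CPM in the controls and 619, 670 and 694 CPM in the knockdown, and its adjusted p of 0.0508 missed the threshold. ATP5G2 was at 25.2 and 287 CPM against 439, 356 and 351 CPM, and ATP5G1 at 224 and 401 CPM against 255, 212 and 211 CPM. ATP5G3 and ATP5G2 lay above both controls in the knockdown, while the ranges of ATP5G1 overlapped. The log2 fold changes were 2.09 (SE 0.61), 1.29 (SE 0.83) and -0.47 (SE 0.28).

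The 2 controls were uneven for many of these genes. Control 1 was below control 2 for 66 of the 85 tested members (77.6%), against 51.6% of all genes tested. The order control 1, control 2, then all 3 knockdown libraries, from low to high, held for 52 members (61.2%, against 24.3% of all genes), among them 23 of the 24 called higher. The reverse order held for 11 (12.9%, against 23.1%), among them all 9 called lower. Relative to the knockdown mean on log2(CPM + 1), the median member was at -1.16 in control 1 and -0.40 in control 2, where the median of all genes was at -0.10 and 0.00. In 19 members (22.4%, against 12.1% of all genes) control 2 was at least 3 times control 1, and COX8A, COX5A, ATP5O, ATP5G2, NDUFB1 and NDUFA4, named after their values were seen, were among them. NDUFB3 was the 1 higher member outside the order, with control 1 slightly above control 2. Across the 85 genes the correlation of log2(CPM + 1) was 0.82 between the controls, 0.48 to 0.54 between control 1 and the knockdown libraries, 0.81 to 0.86 for control 2, and 0.98 to 0.99 among the knockdown libraries. These genes are not independent replicates.

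**Figure D4:**
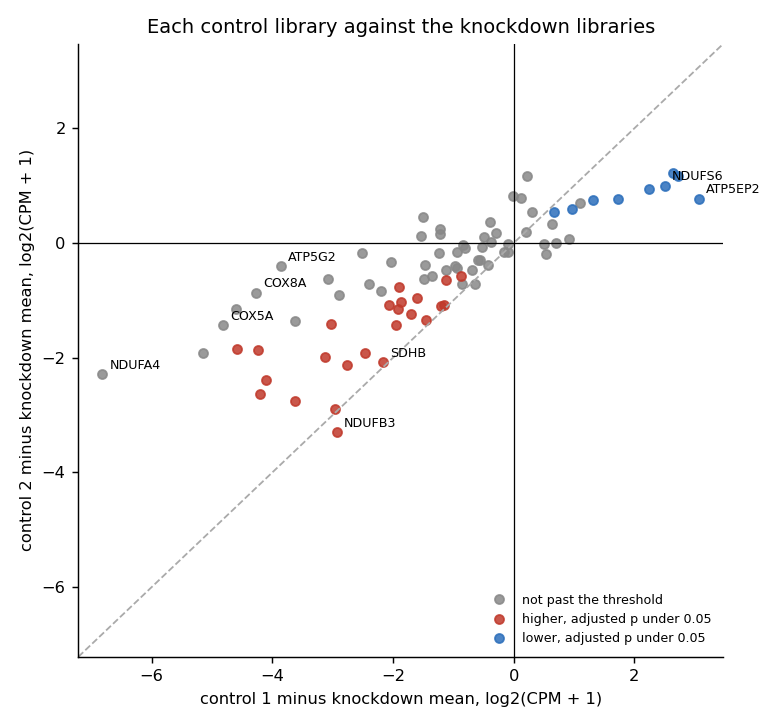
Difference of control 1 (horizontal axis) and of control 2 (vertical axis) from the mean of the 3 knockdown libraries, in log2(CPM + 1), for each of the 85 tested genes; the dashed line marks equal differences and colour marks the test result. Most points lie farther from 0 on the horizontal than on the vertical axis, as for NDUFA4, COX5A, COX8A and ATP5G2, while NDUFB3 and SDHB lie by the line.

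Reads were counted without strand and for each gene they overlap, so 14 members that share exon sequence with another gene are uncertain. These were ATP5E, ATP5F1, ATP5J, ATP5J2, ATP5J2-PTCD1, NDUFA1, NDUFA2, NDUFA4L2, NDUFB2, NDUFC2, NDUFC2-KCTD14, NDUFS3, SDHC and UQCRQ. Among the 5 of them that were called, all higher, 4 have a partner on the opposite strand: RNF113A was at 19.1 and 17.1 CPM against 25.2 to 28.0 CPM beside NDUFA1, CFAP126 at 2.69 and 1.38 CPM against 0.738 to 1.84 CPM beside SDHC, GABPA at 13.2 and 12.6 CPM against 10.4 to 15.5 CPM beside ATP5J, and WDR77 at 30.4 and 38.2 CPM against 60.9 to 71.2 CPM beside ATP5F1. WDR77 passed as well, with a log2 fold change of 0.91 (adjusted p 0.0301), while the other 3 partners did not. The 71 tested members with no such overlap had 19 higher and 9 lower (11.2% and 11.4% of all genes). Their median log2 fold change was 0.67. NDUFA3, NDUFA6 and COX8C are also annotated on alternate copies of their loci, where reads that align to several places may have been lost.

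Members called lower were richer in GC than those called higher. The median GC content of the longest transcript was 45.3% in the 24 higher, 59.4% in the 9 lower and 47.9% in the 52 not called, beside 48.4% over all genes tested. Across the 85 members the log2 fold change had a Pearson correlation of -0.34 and a Spearman correlation of -0.31 with GC, and across 14178 genes these were -0.18 and -0.20. In a fit with GC-dependent offsets 24 members were higher (9.71% of all genes) and 8 lower (11.0% of all genes), with a median log2 fold change of 0.60. Of the calls, 22 and 6 were shared with the fit without offsets; NDUFS4, SDHD, NDUFA11, NDUFB10 and NDUFB11 missed the threshold there with folds in the same direction, NDUFS4 at 0.51 (from 0.72), SDHD at 1.54 (from 1.77), NDUFA11 at -0.83 (from -1.07), NDUFB11 at -0.66 (from -0.80) and NDUFB10 at -0.49 (from -0.61). NDUFB3, SDHB, NDUFS7 and NDUFV1 kept their calls.

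**Figure D5:**
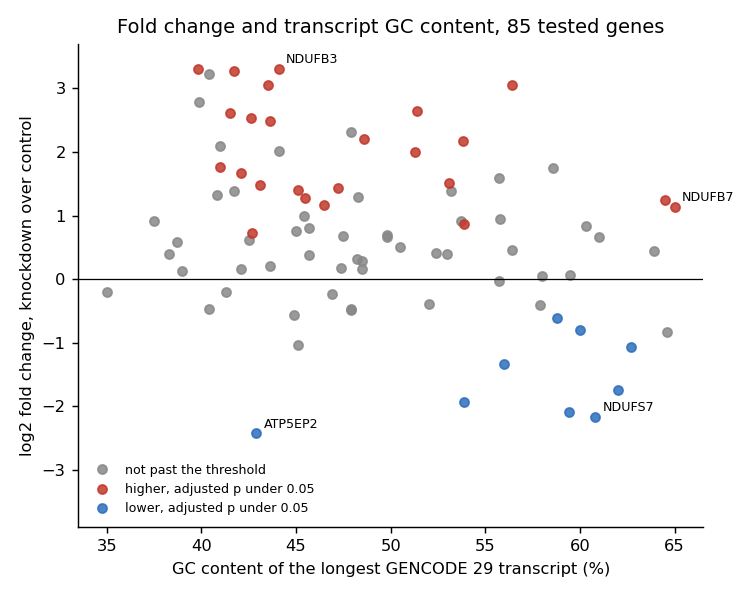
Log2 fold change of knockdown over control (vertical axis) against the GC content of the longest transcript in percent (horizontal axis) for the 85 tested genes, with colour for the test result. Of the 9 genes called lower, ATP5EP2 alone lies to the left of the median of all genes (48.4%), while NDUFB7 is a higher member at the GC-rich end.

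Other genes of the pathway showed a mixed pattern. Of 47 assembly factors, which build the complexes without staying in them, 9 were higher and 2 lower (11.2% and 11.4% of all genes), with a median log2 fold change of 0.51 (0.29 without control 1). COX17, a copper chaperone of complex IV, rose from 29.6 and 22.7 CPM to 112, 119 and 119 CPM (log2 fold change 2.16, adjusted p 0.0124), and COA1, which acts in complex IV and complex I assembly, from 19.6 and 18.2 CPM to 83.5, 77.8 and 99 CPM (2.20, adjusted p 0.0124). In both genes the controls were close and all knockdown libraries far above them. TMEM70 (complex V) and NDUFAF6 (complex I) had log2 fold changes of 1.28 and 1.31, each with an adjusted p under the threshold. SURF1, a complex IV factor, fell from 61.0 and 44.8 CPM to 21.8 ± 4.05 CPM, and PET117, another, from 53.9 and 32.6 CPM to 17.8 ± 4.76 CPM. PET117 shares exon sequence with CSRP2BP and is uncertain.

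Of 15 genes for electron carriers, 4 were higher and 1 lower (11.2% and 11.4% of all genes). COQ2 and COQ10B, of coenzyme Q synthesis and handling, had log2 fold changes of 1.47 and 1.27. The partners of the electron transfer flavoprotein parted: ETFA rose from 70.8 and 51.0 CPM to 138 ± 7.86 CPM, and ETFB fell from 758 and 604 CPM to 351 ± 15.4 CPM, with adjusted p of 0.0209 and 0.0254. Cytochrome c itself (CYCS) was at 2229 CPM in control 1, 286 in control 2 and 385 ± 43.4 in the knockdown, so its log2 fold change of -1.71 (adjusted p 0.117) became 0.43 without control 1. Of 14 regulators of mitochondrial genes, some acting in the nucleus and some on mitochondrial DNA, 3 were higher and 1 lower. Over all genes the shares were 11.2% and 11.4%, and the difference from them was not tested. TFAM, which packages mitochondrial DNA, rose from 118 and 120 CPM to 208, 189 and 224 CPM, a log2 fold change of 0.80 (SE 0.19, adjusted p 0.0318). TFB2M, a mitochondrial transcription factor, had 2 and 7 reads in the control libraries, against 94, 52 and 75 in those of the knockdown, and passed with an adjusted p of 0.0131. GABPB1, a partner of the ETS factor GABPA, rose by 1.36 on the log2 scale, but it shares exon sequence with GABPB1-AS1 and is uncertain. PPARA fell by 1.41 (log2 fold change -0.87 without control 1). The regulator NRF1 was at 19.6 and 19.3 CPM against 13.9 ± 0.691 CPM and did not pass (adjusted p 0.146).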

How the data were processed

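Libraries were 3' end RNA libraries (QuantSeq FWD) of 5 SW480 samples, 2 control and 3 AKAP12 knockdown, per the labels' protocols. The deposited values are raw counts per gene, made by the authors with featureCounts 1.6.2 over exons, counting reads for every gene they overlap and without a strand option, per the file headers. STAR 2.7 and the build hg38 are named in the submitters' processing notes. No source used here gives molecular identifiers or trimming, so limits for 0 counts cover counting error only. Whether replicates came from separate cultures is not labelled, so the p-values cover only the spread among these 5 samples, possibly a technical one. No 2 libraries agreed within sampling noise (chi-square per degree of freedom 5.55 to 9.29 among the knockdown libraries and 114 between the controls).

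Genes passing filterByExpr (minimum count 10; 14536 of 26485) were TMM-scaled and tested with edgeR 4.0.16 (R 4.3.3; glmQLFit and glmQLFTest, two-sided, no covariates), with Benjamini-Hochberg adjustment over all of them and a threshold of 0.05. SE is the absolute log2 fold change over the square root of F. An exact permutation test of 1 gene cannot go below p = 0.1. CPM values of genes use TMM-scaled library sizes, and the limits for 0 counts use library totals. Alternatives were DESeq2 1.42.0, limma-voom (limma 3.58.1), RLE scaling, library size only, no filter, 5 CPM in 2 libraries, the replicate number as a block, removal of TERT and short RNAs, GC offsets (loess span 0.2) and each library left out. Transcript GC came from GENCODE release 29, with a value for 97.5% of tested genes.

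The members and gene lists were chosen with earlier results of these data known, and are described by counts and medians. Named genes were, per complex, up to 8 (complex I) or 5 of the smallest p among called members without overlap between groups, the highest mean CPM, the isoform and subunit c genes, overlapping members, and 4 per other list; further names were chosen after their values were seen. The values of 1 member are not reported here.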

Additional observations from a re-analysis of the deposited data

How the results depend on the processing

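The 24 higher and 9 lower members were 27 and 9 with RLE scaling (1626 and 1745 of all genes), 22 and 7 by library size only (1668 and 982), 33 and 8 with limma-voom (1655 and 1418), 32 and 8 without a filter (1827 and 1713) and 37 and 9 with DESeq2 (2075 and 2089). Without overlapping members the median of complex II was 1.77, since SDHC is left out. Read-through, pseudogene, copy and assembly-factor names were left out as an alternative chosen after seeing the data. This gave 22 higher and 8 lower (11.2% and 11.4% of all genes).

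Leaving out each library in turn, members called ranged from 0 to 73 (higher 0 to 60, lower 0 to 15) and genes changed from 0 to 8811 (higher 0 to 4625, lower 0 to 4186). The 0 came from each edgeR fit without a knockdown library, with 4015, 4109 and 3774 genes at an unadjusted p under 0.05, and its cause was not tested. The members' median ranged from 0.40 to 1.18, and the medians of complexes I to V from 0.16 to 0.88, 1.79 to 2.35, 0.39 to 0.96, 0.53 to 2.24 and 0.44 to 1.00. AKAP12 ranged from -1.42 to -0.52.

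AKAP12 passed the threshold with DESeq2 (-1.06), limma-voom (-0.98), no filter (-1.0), 5 CPM in 2 libraries (-1.06), without TERT and short RNAs (-1.04) and with GC offsets (-1.16). Its adjusted p over all alternatives ran from 1.09e-08 to 0.298, and the cause was not tested.

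Same-numbered control and knockdown libraries did not deviate together (r = -0.05 and -0.08). With only 2 controls, of which control 1 stood apart, this check cannot exclude a pairing. The labels state none, and the main fit used none. With the replicate number as a block, 10 members passed, 10 higher (9 shared with the fit without it) and 0 lower, while 44 had an unadjusted p under 0.05, and 210 genes changed (185 higher, 25 lower).

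Genes with small folds changed sign, the following among them. With GC offsets NDUFS1 was at -0.06 and COX7C at -0.16. Without control 1, NDUFV2 was at 0.20, NDUFA9 at -0.46, NDUFV3 at -0.23 and NDUFB9 at -0.15. NDUFS3 was at 0.00 with limma-voom, 0.14 by library size only, 0.07 with the replicate block, 0.05 with GC offsets, and -0.36 to 0.40 with a library left out. ATP5J2 was at -0.04 with the block and -0.17 to 0.30 with a library left out, ATP5G1 ranged from -0.83 to 0.01 and UQCRHL from -0.64 to 0.10. COX7A1 was at -0.09 without control 1; without control 2, its 0 reads in control 1 leave a fitted value of 6.92, which is no bound. The cause of these sign changes was not tested. With 8 reads in control 1, the value of SDHD is limited by its counts.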
